A study of Homo sapiens with 8 samples.

Results

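The glucocorticoid receptor (GR) sites of dexamethasone-treated T47D A1-2 cells were set against the progesterone receptor (PR) sites of T47D MTVL WT cells. The question was which GR sites are PR sites in the line used as the control. T47D cells are an established line from a human breast cancer, and the series describes A1-2 as a line with both receptors. Binding was mapped by ChIP-seq, in which DNA held by a protein is recovered with an antibody and sequenced. The GR list came from A1-2 cells exposed to 10 nM dexamethasone (Dex), a synthetic glucocorticoid, for 60 min, with a mix of 2 GR antibodies. The PR list came from MTVL cells exposed to 10 nM R5020, a synthetic progestin, for 60 min, with a single PR antibody. Both lines were grown in hormone-stripped serum and then serum-starved, as were the cells of the other lists used beside them, namely PR after R5020 in A1-2 cells (10 nM, 60 min), GR after R5020 in A1-2 cells (10 nM, 60 min), GR and PR in untreated A1-2 cells, PR in untreated MTVL cells and input DNA of A1-2 cells. Peaks on chromosomes 1 to 22 and X that did not overlap an A1-2 input peak were compared, which left 18415 GR peaks and 43070 PR peaks, or 61485 of the 93493 peaks of the 8 lists of the series. Each list is 1 library, so differences have no replicate check and no p-value was computed. The 95% intervals are over peaks and cover counting error only. Receptor, antibody, ligand and cell line all differ between the compared lists, and their parts in a difference cannot be told apart. The names of both MTVL lists also carry the mark NEW, which the A1-2 names lack. Whether the MTVL libraries were run or processed at another time is not given in the labels, and any such difference cannot be told apart from cell line in the comparisons of A1-2 with MTVL. The read depth was unknown, and a deeper library gives a longer list.

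GR and PR are steroid receptors of the nuclear receptor family. Both bind DNA once their hormone has activated them, both act as pairs of receptor molecules on the same palindromic hormone response element, and both are recruited mostly to chromatin that is already open. In the mammary gland PR carries the growth response to progesterone, while GR supports differentiation and milk protein genes. A site held by GR in one line and by PR in another may thus carry the same element, but the lists hold no sequence and the element itself was not analysed here.

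Most GR sites of Dex-treated A1-2 cells were PR sites in MTVL cells, and most PR sites of MTVL cells were not GR sites in A1-2 cells. Of the 18415 GR Dex peaks, 12760 overlapped an MTVL PR peak by at least 1 bp (69.3%, 68.6 to 70.0), and 5655 did not (30.7%, 30.04 to 31.4). Of the 43070 MTVL PR peaks, 12708 were at GR sites (29.5%, 29.1 to 29.9). The shares differ because the PR list is the longer one. GR Dex peaks covered 13.5 Mb with a median width of 659 bp, and MTVL PR peaks 32.1 Mb with a median of 671 bp. When the PR list was shortened to its 18415 strongest peaks, 47.3% of the GR peaks lay at one of them and 46.7% of these PR peaks lay at a GR peak. The GR list was less often found in MTVL cells than was the PR list of its own cell line. Of the 28262 A1-2 PR peaks, 82.7% (82.3 to 83.2) overlapped an MTVL PR peak, and 91.9% (91.5 to 92.2) of the 18415 strongest did. The other GR lists of A1-2 cells shared far less with MTVL PR, with 21.3% (19.0 to 23.7) of 1185 GR peaks after R5020 and 13.5% (10.2 to 17.2) of 394 GR peaks of untreated cells. Chromosome 16 from 34 to 36 Mb, where the MTVL PR list holds 3 peaks, was not left out of these shares. Its part in them was not tested.

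The peaks of the receptors sat on each other's centres. The midpoints of overlapping GR and PR peaks were a median of 42 bp apart, with quartiles of 19.5 and 82.5 bp. In 80.0% of the 12760 shared GR sites the distance was at most 100 bp, and in 5.32% it exceeded 300 bp. Nearly every shared site was a single GR peak on a single PR peak. Such pairs numbered 12463, while 71 GR peaks spanned several PR peaks and 120 PR peaks spanned several GR peaks. The GR peaks of these sites had a median width of 672 bp and their PR partners one of 759 bp.

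**Figure D1:**
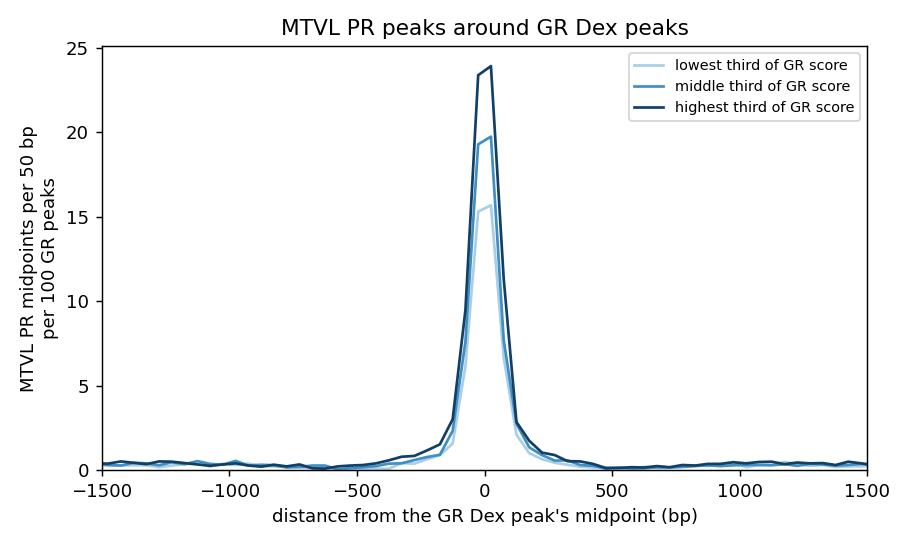
Midpoints of MTVL PR peaks in bins of 50 bp around the midpoints of GR Dex peaks, counted per 100 GR peaks, for 3 classes of equal size by GR score (lowest, middle, highest). In the bin from the centre to 50 bp there were 15.7, 19.7 and 23.9 PR midpoints per 100 GR peaks from the lowest to the highest class.

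Whether a GR site was a PR site in MTVL cells went with its rank in the GR list. The deposited score of a peak was read only as a rank within its own list, and a decile is 1 of 10 classes of equal size by that score, counted from the lowest. At MTVL PR peaks lay 49.3% (47.0 to 51.6) of the lowest GR decile, 66.3% (64.1 to 68.5) of decile 5, 80.4% (78.6 to 82.2) of decile 8 and 94.4% (93.3 to 95.4) of the highest. The share was higher in each decile than in the one below it. Of the 1000 strongest GR peaks, 960 were MTVL PR sites. GR peaks at MTVL PR peaks had a median score of 229, with quartiles of 146 and 432, and GR peaks away from them a median of 147, with quartiles of 117 and 214, so the classes overlapped over most of the range. With the PR list shortened to the length of the GR list, the lowest and highest deciles were at 27.0% and 84.9%. With scores of 3100 or more left out of both lists, which takes away the PR partners of many strong GR sites, the highest decile was at 57.7%.

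Seen from the PR list, the share at GR peaks also rose with rank, mostly at the upper end. Of the lowest decile of MTVL PR peaks 12.004% (11.05 to 13.01) overlapped one of the GR Dex list, of decile 5 19.6% (18.4 to 20.8), of decile 8 37.3% (35.8 to 38.7), of decile 9 50.5% (49.0 to 52.0) and of the highest 75.4% (74.1 to 76.7). Of the 2021 PR peaks with a score of 3100 or more, where the score reaches a ceiling and no longer ranks sites, 85.1% (83.5 to 86.6) lay at a GR Dex peak. PR peaks at GR peaks had a median score of 776, and the others one of 244. Once every list was limited to scores from 200 up, the lowest decile was at 7.22%. Deciles were made anew in each shortened list, so they hold other peaks than the deciles of the full list. With lists of equal length the lowest and highest PR deciles were at 25.9% and 85.6%, close to the 27.0% and 84.9% of the GR deciles.

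**Figure D2:**
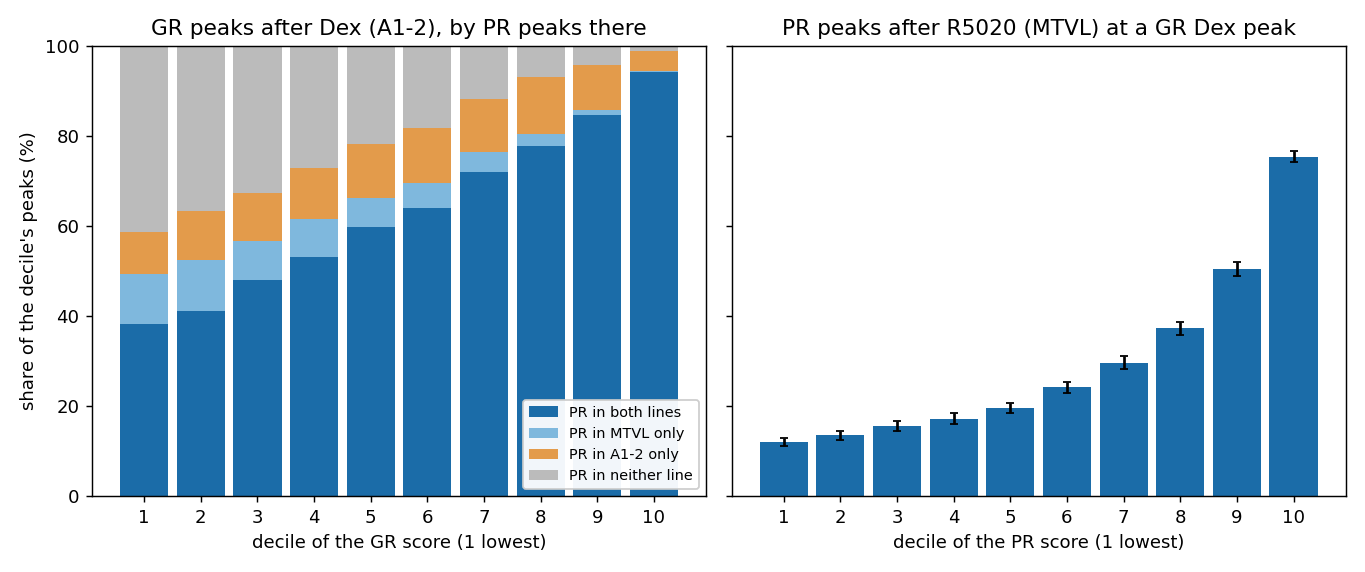
Left, GR Dex peaks of A1-2 cells by decile of the GR score, divided by whether a PR peak after R5020 lay there in both lines, in MTVL cells only, in A1-2 cells only or in neither (bars, share of the decile in percent). Right, share of MTVL PR peaks at a GR Dex peak by decile of the PR score, with 95% intervals. GR sites without PR in either line make up 41.4% of the lowest GR decile and 1.20% of the highest.

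The ranks of the receptors at shared sites agreed loosely. Over the 12760 shared sites, each paired with its strongest overlapping PR peak, Spearman's rho between the scores was 0.363. It was 0.254 over the 10945 sites with both scores under 3100. These are descriptions over sites that share their libraries, and have no p. Shared GR sites tended to lie on the stronger PR peaks of MTVL cells, but only weakly so where their own GR score was low. The within-list percentile, which is the share of a list's peaks that score lower, had a median of 60.5 for the PR partners of the lowest GR decile and of 92.9 for those of the highest. Of the 1738 shared sites of the highest GR decile, 58.5% lay on a PR peak of the highest PR decile and 0.863% on one of the lowest. Of the 908 shared sites of the lowest GR decile, 12.7% lay on a PR peak of the highest decile and 7.82% on one of the lowest. A strong GR site was therefore seldom a weak PR site, while a weak GR site could be a PR site of any rank.

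**Figure D3:**
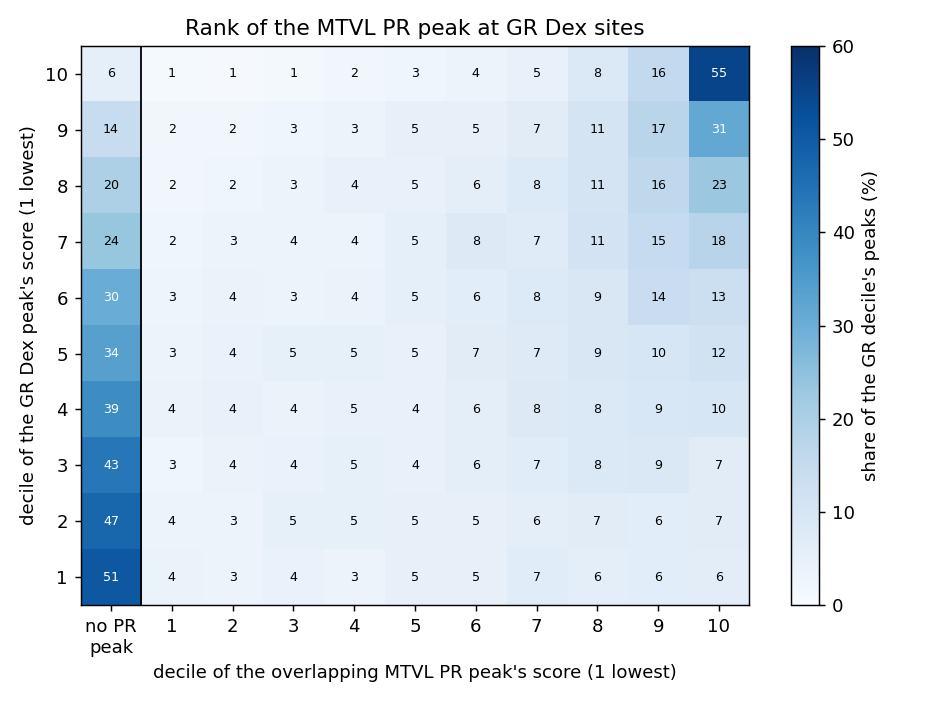
GR Dex peaks by decile of their score (rows) and by decile of the score of the MTVL PR peak they overlap (columns), with the share that overlaps none at the left, in percent of each row. Of the highest GR decile 55.2% fall in the highest PR decile, and of the lowest GR decile 6.24% do.

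The GR peaks of highest score named here were PR sites in both lines, most of them with PR scores at the ceiling. The GR peak of highest score lay at chr14:95737736-95739063 (hg19, score 3203), with an MTVL PR peak from 95737714 to 95738940 (score 3100). The next lay at chr1:215337891-215338548 (score 3187), where the A1-2 PR peak had a score of 3100 and the MTVL PR peak one of 1185, at percentile 82.5 of its list. At chr1:11629409-11630280, at chr3:32078322-32079030 and at chr7:47831198-47832017 the GR scores were 3178, 3162 and 3154, and the PR score was 3100 in both lines. Because of the ceiling, a score of 3100 says only that the site was among the strongest of its list.

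Shared sites with ranks far apart existed in both directions. The widest gap with GR strong was at chr11:65164406-65165162, at percentile 96.6 of the GR list (score 1347). The A1-2 PR peak there had a score of 1336, at percentile 90.2, and the MTVL PR peak, from 65164693 to 65165171, one of 103 at percentile 1.54. At chr6:135224359-135225112 the GR score was 1239, the A1-2 PR score 1054 and the MTVL PR score 109. At chr2:174263889-174264548 the GR score was 1153, the A1-2 PR score 485 and the MTVL PR score 101, and untreated A1-2 cells also had a peak. In each of the 5 widest gaps of this kind, PR of A1-2 cells ranked between 68.8 and 90.2 in percentile. These sites were picked for a low MTVL rank, so that the A1-2 rank lay above it was not a separate result. In the other direction, GR peaks close to the score minimum overlapped PR peaks at the ceiling, but off their centres. At the sites given here the midpoints were over 300 bp apart, as they were in 5.32% of all shared sites. The GR peak may thus lie on the flank of the PR peak, and the ranks need not be those of a single site. At chr10:199457-200164 the GR score was 100.04 and the MTVL PR score 3100, from 198812 to 199641, and no A1-2 PR peak lay there. At chr6:116380818-116381189 the GR score was 100.13 and the A1-2 PR score 724, against an MTVL PR score of 3100 from 116380593 to 116382491. At chr5:35173063-35173522 the GR score was 102.5 and the A1-2 PR score 2773, against an MTVL PR score of 3171 from 35171836 to 35173508.

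PR in A1-2 cells was then used to divide the GR sites further. It was measured in the same line as GR but with the antibody and ligand of the MTVL list. Of the GR Dex peaks 73.8% lay at an A1-2 PR peak. Among those at MTVL PR peaks 91.3% (90.8 to 91.8) did, compared with 34.2% (33.0 to 35.5) of the 5655 away from them. GR sites with PR in both lines numbered 11654 (63.3%, 62.6 to 64.0) and had a median GR score of 248. Sites with PR in MTVL cells only numbered 1106 (6.01%, 5.67 to 6.36), sites with PR in A1-2 cells only 1936 (10.51%, 10.1 to 10.97) and sites with PR in neither 3719 (20.2%, 19.6 to 20.8), with median GR scores of 138, 189 and 136. The sites with PR in MTVL cells only were weak there too. Their PR peaks had a median MTVL score of 187, at percentile 30.8, compared with 926 at percentile 78.0 where A1-2 cells had PR as well. Sites with PR in A1-2 cells only had a median A1-2 PR score of 176, compared with 551 at sites with PR in both lines. Limiting every list to scores from 200 up shortened the GR list too. It left 2346 GR peaks away from MTVL PR peaks, with 73.5% of the GR peaks at them, against 69.3% in the full lists. With the MTVL list shortened to the length of the GR list, 9712 of the 18415 GR peaks were away. Of these, 52.4% lay at an A1-2 PR peak.

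The rank of PR in A1-2 cells went with the presence of PR in MTVL cells more closely than the rank of GR did. Among the 13590 GR sites at A1-2 PR peaks, the share at MTVL PR peaks was 80.3% (78.8 to 81.8) in the lowest of 5 classes of the GR score and 94.2% (93.2 to 95.003) in the highest. In 5 classes of the A1-2 PR score at the same sites it was 60.4% (58.5 to 62.2) in the lowest and 99.0% (98.6 to 99.4) in the highest. In the lowest class of the A1-2 PR score, 62.4% (59.3 to 65.3) of 1034 sites in the lowest GR class were MTVL sites. In the highest GR class 52.2% (39.7 to 64.6) of 67 were. In the next class of the A1-2 PR score the shares were 86.1% (83.3 to 88.5) of 732 and 75.6% (68.1 to 82.1) of 156. In class 3 they were 94.2% (91.8 to 96.0) of 531 and 87.0% (82.6 to 90.7) of 285. In class 4 they were 96.25% of 320 and 94.0% of 619, and in class 5 99.0% of 101 and 99.1% of 1591. The share was thus lower at high GR score in all but class 5, where it was about equal. The intervals cover counting error only, and whether they overlap is no test. Chromosome 16 from 34 to 36 Mb was not left out here. In that stretch 195 of 271 GR peaks lay at A1-2 PR peaks and 3 at MTVL PR peaks. Its part in these shares was not tested. At the 11654 sites with all 3 peaks, rho was 0.561 between GR and A1-2 PR, 0.323 between GR and MTVL PR, and 0.748 between A1-2 PR and MTVL PR. The first of these shares its cell line and the last its antibody and ligand.

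Most GR sites away from MTVL PR peaks were not close misses of the overlap rule. The nearest MTVL PR peak was a median of 16.8 kb away, with quartiles of 5.01 and 47.2 kb. It lay within 1 kb for 7.82% of these sites, within 5 kb for 24.99% and within 50 kb for 76.2%. The PR peaks at shared GR sites had their next PR neighbour at a median of 6.80 kb, and 88.5% of them had one within 50 kb. GR peaks away from MTVL PR peaks had a median width of 630 bp, compared with 672 bp at them, but at equal GR rank the order turned round. In deciles 2 to 10 the peaks away from MTVL PR peaks were the wider ones, with 656 bp away and 629.5 bp at them in decile 5 and 1103 bp away and 855.5 bp at them in decile 10.

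The strongest GR sites that were no PR sites in MTVL cells were few. In the highest GR decile 103 of 1841 peaks (5.59%, 4.59 to 6.74) had no MTVL PR peak, against 30.7% of all GR peaks. Of the 103, 81 were PR sites in A1-2 cells (78.6%, 69.5 to 86.1). That was less often than at MTVL PR peaks, where 1734 of 1738 were. A peak of untreated A1-2 cells, of GR or PR, overlapped 34 of the 103 (33.0%, 24.1 to 43.0), compared with 26 of the 1738 at MTVL PR peaks (1.496%, 0.979 to 2.18). Chromosome 16 held 28 of the 103 (27.2%, 18.9 to 36.8) and 88 of the 1738 (5.06%, 4.08 to 6.20). Of the 28, 17 lay in the stretch from 34 to 36 Mb, where peaks of A1-2 cells stand close together. Without that stretch chromosome 16 held 11 of 86 (12.8%, 6.56 to 21.7) and 85 of 1735 (4.90%, 3.93 to 6.02), and untreated A1-2 peaks overlapped 19 of 86 (22.1%, 13.9 to 32.3) and 24 of 1735 (1.38%, 0.888 to 2.05). Outside chromosome 16 and off untreated peaks 56 were left. The strongest GR peaks with PR in A1-2 cells only lay at chr1:110706938-110712783 and chr1:177558232-177559362, both with a score of 3100. The first is 5846 bp wide and lay at an untreated peak, with an MTVL PR peak 6.09 kb away. The second is 1131 bp wide, was not at an untreated peak and was 347 kb from the nearest MTVL PR peak, while the A1-2 PR peak there also scored 3100. A GR peak of score 2788 at chr4:14669321-14670157 had an A1-2 PR peak of score 2397, and the nearest MTVL PR peak was 111 kb away.

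Strong GR sites without PR in either line were rarer. They made up 1.20% of the highest GR decile. The strongest lay at chr6:167312015-167316199 (score 2637), 20.2 kb from the nearest MTVL PR peak. Others among the 5 of highest score lay at chr12:131771995-131773229 (score 2144) and at chr17:80975251-80976323 (score 2000), that on chromosome 17 with an MTVL PR peak 2.34 kb away. The sites with PR in MTVL cells only included 1 of high PR rank among the 5 of highest GR score, at chr11:47598521-47599622 (GR score 995, MTVL PR score 3071). At the other 4 the MTVL PR score was between 109 and 126, close to the minimum of 100.

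The reverse exceptions were strong MTVL PR sites where the GR list of Dex-treated A1-2 cells had no peak. In the highest PR decile 1058 of 4307 peaks (24.6%, 23.3 to 25.9) had no GR peak. Most of them had a PR peak in A1-2 cells, since 966 (91.3%, 89.4 to 92.9) were A1-2 PR sites, compared with 3239 of 3249 (99.7%, 99.4 to 99.9) of those with a GR peak. Those of highest score, all above the ceiling and so not ranked among themselves, included peaks at chr7:123771209-123771981 and at chr17:47892645-47893728, both with a score of 3233, where the A1-2 PR scores were 760 and 342. At chr13:109507154-109508627 (score 3228) no A1-2 PR peak after R5020 was listed, and the nearest GR Dex peak was 100.3 kb away.

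GR peaks away from MTVL PR peaks were less often A1-2 PR peaks after R5020, as given above, but more often peaks of untreated A1-2 cells and of GR after R5020. Untreated GR peaks overlapped 183 of the 5655 (3.24%, 2.79 to 3.73) and 37 of the 12760 at MTVL PR peaks (0.290%, 0.204 to 0.399). Untreated A1-2 PR peaks overlapped 194 (3.43%, 2.97 to 3.94) and 56 (0.439%, 0.332 to 0.570). GR peaks after R5020 overlapped 384 (6.79%, 6.15 to 7.48) and 204 (1.60%, 1.39 to 1.83). With chromosome 16 from 34 to 36 Mb left out, the shares for untreated GR peaks were 2.10% (1.73 to 2.52) away from MTVL PR peaks and 0.282% (0.198 to 0.390) at them, and those for untreated A1-2 PR peaks 2.38% (1.99 to 2.82) and 0.423% (0.318 to 0.552). For GR peaks after R5020 they were 3.99% (3.48 to 4.55) and 1.58% (1.37 to 1.81). Untreated MTVL PR peaks overlapped 0 of the 5655 GR peaks away from MTVL PR peaks after R5020 and 155 of the 12760 at them (1.21%). The classes were made with PR peaks of that same line. This last contrast can therefore follow from the class rule, and nothing was concluded from it.

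The chromosomes differed in how many of their GR sites were PR sites in MTVL cells, and less so in A1-2 cells. At A1-2 PR peaks lay between 68.5% (chromosome 20) and 81.2% (chromosome X) of the GR peaks. The share at MTVL PR peaks was lowest on chromosome 16, at 46.0% (43.1 to 49.0) of 1147 GR peaks. It was 59.2% (55.7 to 62.6) on chromosome 20, 61.6% (58.4 to 64.7) on chromosome 14 and 64.2% (60.9 to 67.5) on chromosome 12. It was highest on chromosome 4, at 77.9% (74.3 to 81.2). On chromosome 16 the share at A1-2 PR peaks was 72.5%, which is 26.5 percentage points above that at MTVL PR peaks, and on chromosomes 14, 20 and 12 it was 9.47, 9.32 and 9.005 points above. The median GR score was 209 on chromosome 16, 176 on chromosome 20, 193 on chromosome 14 and 185 on chromosome 12. That of chromosome 20 was the lowest of all chromosomes, and that of chromosome 16 was close to the highest, 212 on chromosome 22. The PR list of A1-2 cells showed the same chromosomes lowest, with 59.0%, 70.9% and 71.9% of its peaks on chromosomes 16, 20 and 14 at MTVL PR peaks, against 82.7% of all its peaks. The intervals were not adjusted for the 23 chromosomes, and the copy number of chromosomes in the lines was not analysed here.

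**Figure D4:**
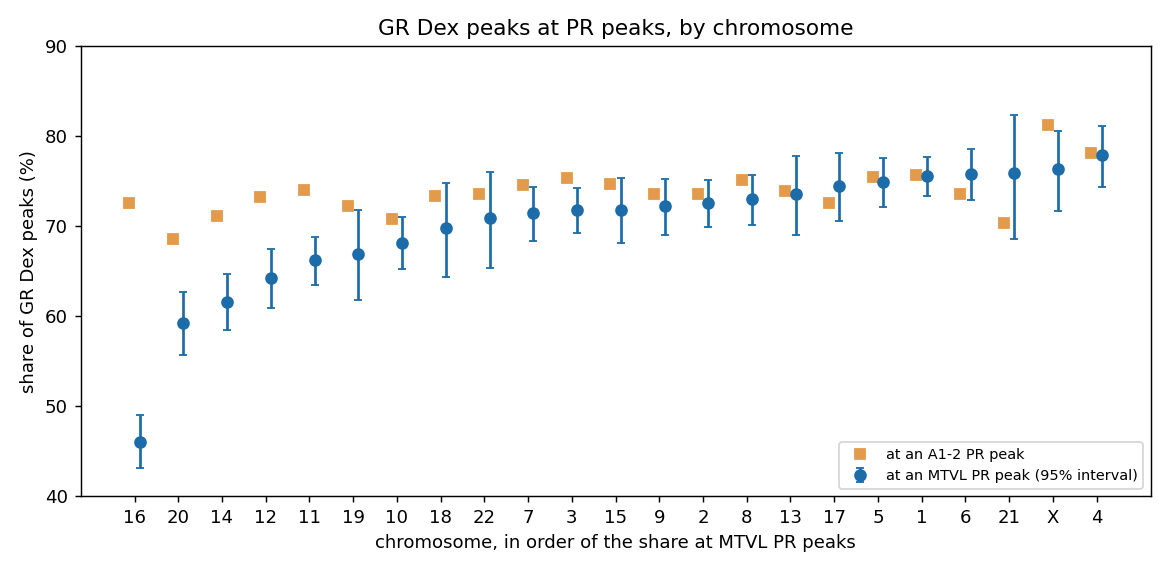
Share of GR Dex peaks at an A1-2 PR peak (squares) and at an MTVL PR peak (circles, with 95% intervals) on each chromosome, in order of the share at MTVL PR peaks; the vertical axis runs from 40 to 90%. Chromosomes 16, 20, 14, 12 and 11 have shares from 68.5% to 74.0% at A1-2 PR peaks and the lowest shares at MTVL PR peaks, from 46.0% to 66.2%.

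Part of the low share on chromosome 16 lay in a single stretch. Between 34 and 36 Mb there were 271 GR Dex peaks, of which 195 (72.0%) lay at A1-2 PR peaks and 3 (1.11%, 0.229 to 3.20) at MTVL PR peaks. The A1-2 PR list held 262 peaks there and the MTVL PR list 3. Elsewhere on chromosome 16 the share at MTVL PR peaks was 59.9% (56.6 to 63.2) of 876, compared with 70.8% (70.2 to 71.5) on all other chromosomes. In segments of 5 Mb with at least 20 GR peaks, of which there were 379, the share at MTVL PR peaks had a median of 73.0%, with quartiles of 63.0% and 81.2%. The share at A1-2 PR peaks was under 50% in 8 segments and the share at MTVL PR peaks in 23. Low segments outside the 34 to 36 Mb stretch were on chromosome 14 from 105 to 110 Mb, where 42.6% of 54 GR peaks lay at A1-2 PR peaks and 31.5% at MTVL PR peaks, on chromosome 18 from 75 to 80 Mb, with 36.1% and 33.3% of 36, and on chromosome 12 from 125 to 130 Mb, with 71.9% and 34.4% of 32. The highest share at MTVL PR peaks was on chromosome 17 from 55 to 60 Mb, at 97.1% of 34 GR peaks.

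GR peaks with another GR peak within 10 kb were less often MTVL PR sites than isolated ones of the same rank. Such near peaks numbered 7624 (41.4% of the list) and had a median score of 215, and the 10791 isolated peaks one of 181. Without regard to score 67.7% of near and 70.4% of isolated peaks lay at MTVL PR peaks, a difference of -2.68 points. Standardised over GR score deciles the difference was -6.18 points (-7.49 to -4.87), and the share was lower for near peaks in each of the 10 deciles. At A1-2 PR peaks the standardised difference was -0.0149 points (-1.22 to 1.19). The size at MTVL PR peaks varied with the peaks used and the rule for sharing. It was -3.88 points (-5.19 to -2.57) without chromosome 16 from 34 to 36 Mb, -3.88 with the PR list shortened to the length of the GR list and -9.80 when sharing was asked of midpoints within 200 bp.

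**Figure D5:**
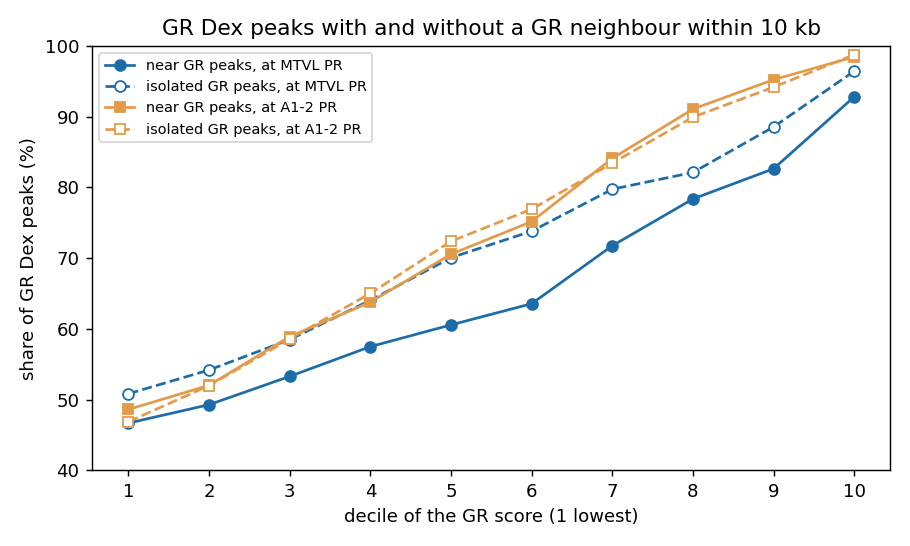
Share of GR Dex peaks at an MTVL PR peak (circles) and at an A1-2 PR peak (squares) by decile of the GR score, for peaks with another GR peak within 10 kb (filled) and isolated ones (open); the vertical axis runs from 40 to 100%. In decile 6 63.6% of near and 73.8% of isolated peaks lie at MTVL PR peaks, and 75.2% and 76.9% at A1-2 PR peaks.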

How the data were processed

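The deposited files list peaks, 1 library to a file, each peak with its position and a score. The submitters' processing notes name Bowtie 1.1.1 and MACS 1.4.2, together with bedtools and hg19 as the build. How these were set, which control was used in calling and how deep the libraries were is not given in the sources used here. The score the authors deposited was read as MACS's -10 log10 p, because no value is under 100 and file names state a p of 1e-10.

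Samples were grouped by their titles. Of the deposited peaks, 18415 of 18538 (GR, Dex) and 43070 of 43398 (PR, MTVL) were used. Sharing meant an overlap of 1 bp or more, and a GR peak was paired with the strongest PR peak it overlapped. Shares have exact (Clopper-Pearson) intervals. Differences of shares were weighted over GR score deciles and have normal intervals. Named peaks are among the 5 of highest score in each class, or the 5 widest rank gaps; not all of the 5 are printed. Steps were tested on simulated lists, and bedtools 2.31.1 gave the same overlap counts. Python 3.11.15, numpy 2.4.6, scipy 1.17.1 and matplotlib 3.10.9 were used. The gene table at hand is of another build, so no gene was placed and no sequence printed. Members, classes and settings were chosen with earlier results of these data known.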

Additional observations from a re-analysis of the deposited data

How the results depend on the processing

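No paired analysis was possible because each condition had 1 library. Of 90 alternatives over 11 results, 49 stayed within the 95% interval of the reported value, or within 1.5 times for a count, and 41 moved further. Deciles were made anew in each changed list. Shares and counts cannot change sign. Only rho and the differences of shares could, and 0 of their alternatives did. In the order of share of GR peaks at MTVL PR peaks, share of MTVL PR peaks at GR peaks, lowest and highest GR decile, and lowest and highest PR decile, midpoints within 200 bp gave 62.7%, 26.8%, 44.8%, 82.1%, 10.9% and 64.9%, with -9.80 points for near minus isolated GR peaks. An MTVL list of the length of the GR list gave, in the same order, 47.3%, 46.7%, 27.0%, 84.9%, 25.9% and 85.6%, with 9712 GR peaks away from MTVL PR peaks, 52.4% of them at A1-2 PR peaks, a rho of 0.331 and -3.88 points. Limiting every list to scores from 200 up gave 73.5% and 22.5% for the shares, 58.9% for the lowest GR decile, 7.22% and 65.3% for the PR deciles, 2346 GR peaks away from MTVL PR peaks with 38.4% at A1-2 PR peaks, and a rho of 0.311. Leaving out scores of 3100 or more gave 59.7% and 26.7% for the shares, 46.9% and 57.7% for the GR deciles, 61.1% for the highest PR decile, 49.6% of GR peaks away from MTVL PR peaks at A1-2 PR peaks and a rho of 0.254; by construction it removes the PR partners of strong GR sites. The GR Dex and MTVL PR lists were also taken without peaks at untreated peaks of the same receptor and line, with the A1-2 PR list left whole. The highest GR decile was then at 92.3% and near minus isolated at -4.85 points. This setting takes away MTVL PR peaks as well as GR peaks. Of the GR peaks at MTVL PR peaks, 155 lay at untreated MTVL PR peaks, so it can remove PR partners of GR sites. Without chromosome 16 from 34 to 36 Mb the share of GR peaks was 70.3%, that of the others at A1-2 PR peaks 32.4%, and near minus isolated -3.88 points. Near minus isolated was also -8.04 points at 5 kb, -2.68 without strata and -4.15 with deciles within chromosomes, which was added after seeing the data. Ends minus the rest was -11.8 points with ends of 10 Mb. The cause of these moves was not tested. Depth, unknown here, limits the number of weak sites in each list.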

Other observations

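GR sites near the ends of chromosomes were less often PR sites than those further in, a pattern chosen after the data were seen. Ends were taken as the 5 Mb next to the outermost peak of any list on each chromosome arm, without the short arms of chromosomes 13, 14, 15, 21 and 22. They held 2533 GR Dex peaks, or 13.8% of the GR list, and 8.05% of the MTVL PR list and 10.7% of the A1-2 PR list. At MTVL PR peaks lay 55.9% of the GR peaks at ends and 71.4% of the rest, a difference of -15.1 points (-17.0 to -13.2) standardised over GR score deciles. Within chromosomes it was -14.2 points. A lower share was also found for PR of A1-2 cells, at 62.5% of ends and 75.6% of the rest, with a standardised difference of -12.5 points (-14.3 to -10.7). GR sites without PR in either line made up 32.2% of the GR peaks at ends and 18.3% of the rest. The median GR score was 188 at ends and 194 elsewhere.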
